A study of Mus musculus with 30 samples.

Results

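MHC class I antigen presentation was followed through 10 genes across neurons, astrocytes and myeloid cells of the mouse brain. The genes were chosen with earlier results of these data known. They were chosen by name and read by symbol from the 36528 gene IDs counted in each library, and all 10 were found: the heavy chain genes H2-K1, H2-D1 and H2-T23, the light chain gene B2m, the peptide transporter genes Tap1 and Tap2, the loading factor gene Tapbp, the immunoproteasome subunit genes Psmb8 and Psmb9, and the transactivator gene Nlrc5. The cells were myeloid cells positive for Cd11b, astrocytes positive for Gfap and neurons positive for NeuN, and had been sorted from brains of mice aged 11.5 months, and total RNA of each sort was sequenced. One genotype was PS2APP, a line that carries transgenes for mutant human presenilin 2 and amyloid precursor protein and deposits amyloid, and the other was its non-transgenic littermates (non-Tg). The 30 libraries formed 6 groups of 5, 1 for each genotype in each sort. No treatment is named for any group, and the sources used here name no sex, strain or H2 haplotype. Shared or pooled animals are not identified in the labels, and p-values therefore refer to library-to-library spread, which may be technical.

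MHC class I molecules are a heavy chain paired with beta-2-microglobulin, and they show peptides from inside the cell to CD8 T cells and natural killer cells. The peptides are cut by the proteasome, in which interferon-induced subunits can replace the standard ones, pumped into the endoplasmic reticulum by the Tap1/Tap2 transporter and loaded with the help of tapasin, the product of Tapbp. Nlrc5 is a transactivator that has no DNA-binding domain of its own and acts on class I promoters through proteins bound at their X and Y boxes. In the brain, class I is best known from microglia, endothelial cells and cells exposed to interferon, and neurons are known for low levels.

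The promoters of B2m, H2-K1 and H2-D1 are shown because they hold letters of the X2 and Y boxes at the same spacing. Each stretch holds 115 bases upstream of the annotated start and comes from the RefSeq promoter table of GRCm38.p6, which matched 8 of the 10 members with 9 windows. They lie at chr2:122147529-122147643 on the plus strand (B2m), chr17:34000354-34000468 on the minus strand (H2-K1) and chr17:35262913-35263027 on the plus strand (H2-D1). Capitals mark TGACG (X2 box core), ATTGG (Y box core) and AANNGAAA on either strand (a core of interferon regulatory factor sites). In the heavy chain genes they also mark the single form of NF-kappaB core that was searched for. Other forms of that core were not searched for, so letters left in lower case, in B2m as well, may hold them.
B2m: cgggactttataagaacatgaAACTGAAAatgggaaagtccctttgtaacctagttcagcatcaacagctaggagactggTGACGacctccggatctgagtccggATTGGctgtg
H2-K1: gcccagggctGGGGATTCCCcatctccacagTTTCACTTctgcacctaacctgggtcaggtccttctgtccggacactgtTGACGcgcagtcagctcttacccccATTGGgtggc
H2-D1: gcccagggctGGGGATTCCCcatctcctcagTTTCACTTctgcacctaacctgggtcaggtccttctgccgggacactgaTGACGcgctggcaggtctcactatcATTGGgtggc
In all 3 genes TGACG and ATTGG were separated by 20 bases. That pair, searched on both strands in the 250 bases upstream of each start, was in 30 of 32851 windows (0.0913%), and in 4 of the 9 member windows, since H2-K1 has 2 overlapping windows. The spacing was read from these promoters before it was searched for, so the count describes these 3 genes and tests nothing. The window of H2-M3, another class I heavy chain gene picked by eye from the 30, held the pair too.

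The single cores differed in how common they were. AANNGAAA was in 5 of 9 member windows and 21.3% of all windows, TGACG in 6 of 9 and 17.8%, and ATTGG in 8 of 9 and 33.8%. The searched form of the NF-kappaB core was in 3 of 9 and 0.615%, and its other forms were not counted. A further 3 cores had been searched first, and the shorter ones above took their place after the promoters were read. Of these, GAANNGAAA was in 3 of 9 member windows and 6.31% of all, TGACGC in 3 of 9 and 6.12%, and TTCNNNGAA, the core of sites bound by activated STAT proteins, in 1 of 9 and 7.02%. Every GAANNGAAA match contains an AANNGAAA match, and every TGACGC match a TGACG match.

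The heavy chain genes are near copies of each other in part, which matters for counts that need a unique alignment. The longest uninterrupted run of shared coding bases was 145 between H2-D1 and H2-T23 and 81 between H2-K1 and H2-T23. H2-K1 and H2-D1 share an uninterrupted run of 91 coding bases, in capitals below with 25 bases on either side (coding positions 713 to 853 of H2-K1 and 722 to 862 of H2-D1 in the reference transcripts).
H2-K1: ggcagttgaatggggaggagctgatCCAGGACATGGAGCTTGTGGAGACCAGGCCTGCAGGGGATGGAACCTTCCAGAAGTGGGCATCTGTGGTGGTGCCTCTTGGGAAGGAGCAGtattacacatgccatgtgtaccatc
H2-D1: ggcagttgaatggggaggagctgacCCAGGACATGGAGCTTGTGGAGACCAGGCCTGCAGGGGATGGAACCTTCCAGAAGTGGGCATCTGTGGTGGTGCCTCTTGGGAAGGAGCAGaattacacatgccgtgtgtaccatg
Of all 50-base windows of the reference transcript, 91.2% were unique to the gene for H2-K1, 85.7% for H2-D1 and 70.2% for H2-T23, against 100% for B2m and for Nlrc5. In windows of 75 bases the shares were 98.4%, 92.9% and 86.9% for the heavy chain genes. The read length is not given, so how many heavy chain reads lacked a unique alignment is unknown, and levels of these 3 genes are uncertain to that extent. The windows are of the reference sequence, and no strain or H2 haplotype is named, so any difference from it adds to this uncertainty. In 50-base windows, Psmb9 and Tap1 share 12.5% of the windows of Psmb9, and Tapbp shares 19.0% of its windows with the overlapping gene model Gm19412. Tap2 was 87.4% unique, with windows shared with Gm15821, Gm20496 and Tap1, and Psmb8 was 94.2% unique, with windows shared with Gm20496. Levels of these genes carry the same uncertainty. In position, B2m overlaps Patl2, Nlrc5 overlaps 9330175E14Rik, Gm51584 and Mir7072, and H2-T23 overlaps A930015D03Rik. The strand used in counting is not given, so reads from stretches where genes overlap cannot be told apart. In 50-base windows the reference transcripts of B2m and Nlrc5 shared none with other genes of the transcript set searched, on either strand.

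Total counts ranged from 2015535 to 6749681 per library, and in the myeloid sort they were 2015535 to 2908222 in PS2APP and 3578249 to 6143018 in non-Tg. Each sort was high in its own markers, in CPM (counts scaled to the library total after TMM normalization within the sort). The 10 microglia markers summed to 6629 to 9655 CPM in myeloid libraries. The 10 astrocyte markers summed to 7162 to 15660 in astrocyte libraries and the 12 neuron markers to 2917 to 4288 in neuron libraries. The median share of mitochondrial counts was 9.58% in non-Tg and 14.1% in PS2APP myeloid libraries, and 3.79% and 6.74% in astrocyte libraries. PS2APP myeloid replicate 4, PS2APP astrocyte replicate 3 and PS2APP neuron replicate 5 stood farthest from the others of their sort on the first principal component (27.9%, 35.3% and 59.0% of the variance). In bulk libraries of sorted cells, more cells of a type and more RNA per cell cannot be told apart.

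In non-Tg brains, class I presentation genes were highest in the myeloid sort. All 10 were higher in myeloid than in neuron libraries and 9 of 10 were higher in myeloid than in astrocyte libraries by edgeR's quasi-likelihood test, against 34.1% and 26.8% of all 18101 genes tested. From astrocytes to neurons 9 of 10 were higher in astrocytes, against 26.9% of all genes. The exceptions were Tap2, whose myeloid level was 0.63 ± 0.30 (log2, SE) above the astrocyte level with an adjusted p of 0.0649, and H2-T23, whose astrocyte level was 0.80 below the neuron level on the log2 scale with an adjusted p of 0.236.

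Per length, on the deposited RPKM scale, B2m was the highest member in non-Tg myeloid libraries, with a median of 70.85 and a range of 41.5 to 75.5. H2-K1 followed at a median of 13.9, then H2-D1 at 9.25, Tapbp at 8.43, Psmb8 at 7.78 and Tap1 at 5.97. The range of H2-K1, 11.6 to 18.6, overlapped that of H2-D1, 5.25 to 15.8, and the ranges of H2-D1, Tapbp, Psmb8 and Tap1 overlapped one another. Psmb9 (3.09), Tap2 (3.09), H2-T23 (2.29) and Nlrc5 (1.71) were the lowest medians. The light chain was thus far above any single heavy chain gene, and the transactivator lay at the lower end of its own pathway.

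The astrocyte sort had a different order. B2m (3.40 RPKM), H2-K1 (3.32), Tapbp (2.65) and Tap2 (2.36) had the highest non-Tg medians, each with a range that overlapped the next in that order. Psmb8 and Psmb9, the immunoproteasome subunits, had medians of 0.213 and 0.0568 and counts of 0 to 10 per library. Such counts lay near the limit of detection at this depth, where 3 counts were 0.44 to 1.49 CPM by library total without TMM normalization. In neuron libraries B2m (2.46 RPKM) and Tapbp (0.949) were the highest, H2-K1 was at 0.182, and Nlrc5 (0.0314), Psmb8 (0.0475) and Psmb9 (0.0264) had 0 to 8 counts per library.

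**Figure D1:**
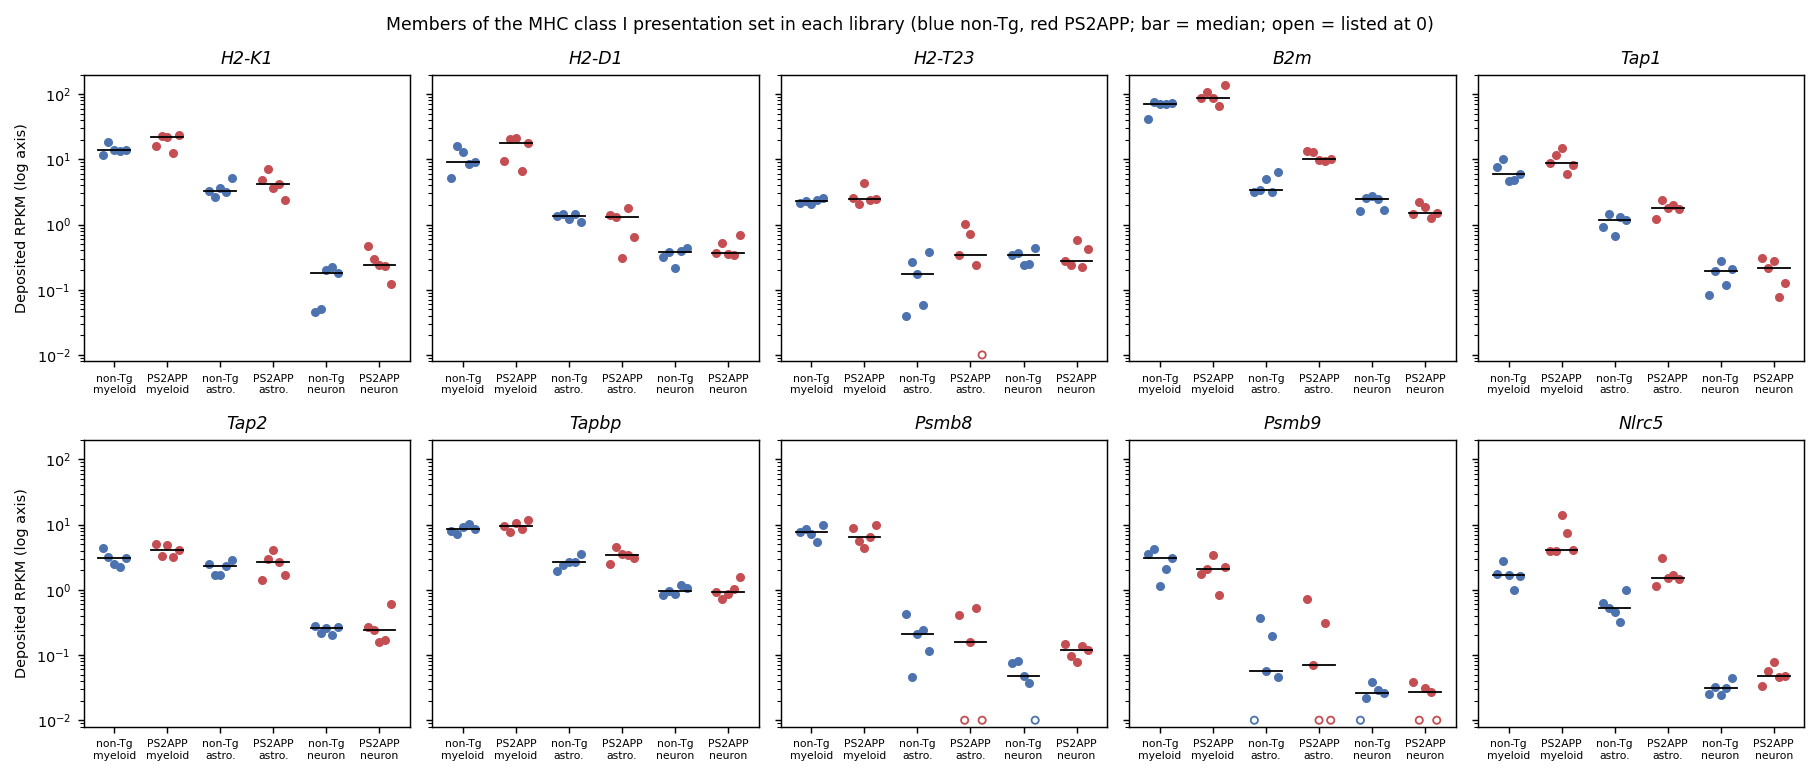
Deposited RPKM (log axis) of the 10 members in each of the 30 libraries, by sort and genotype, with non-Tg in blue, PS2APP in red, the group median as a bar and open circles for libraries listed at 0. All 10 genes have their highest medians in the myeloid sort, while Tap2 in astrocytes lies close to its myeloid level.

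The share of the myeloid level found in the other sorts differed widely among members. In non-Tg libraries the astrocyte median was 76.4% of the myeloid median for Tap2, 31.4% for Tapbp, 31.1% for Nlrc5, 23.8% for H2-K1, 19.3% for Tap1, 14.5% for H2-D1, 7.72% for H2-T23 (1.71% to 16.5% over libraries) and 4.8% for B2m. The microglia markers, measured in the same way, had a median of 0.462% over the 10 markers and a range of 0.12% to 2.17%. Psmb8 and Psmb9, at 2.74% and 1.83%, were close to that range and are read here from few counts. In neuron libraries the same share was 0.611% to 14.8% among the members and 0.398% to 2.09% among the microglia markers.

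**Figure D2:**
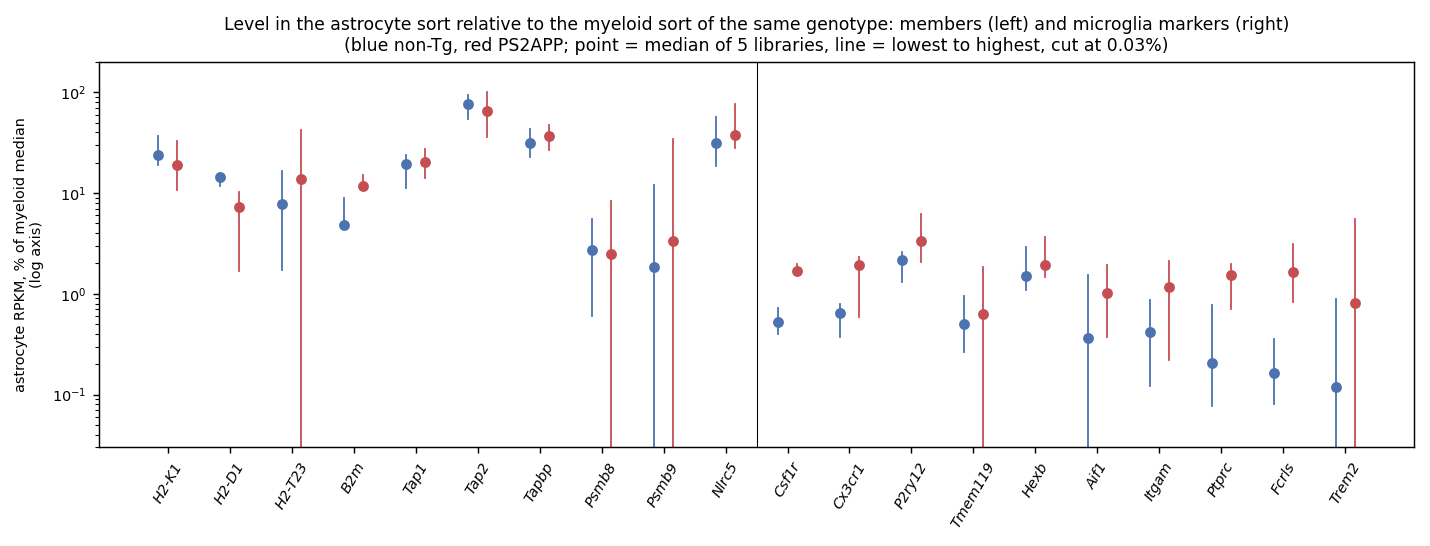
Astrocyte RPKM as a percent of the myeloid median of the same genotype (log axis) for the 10 members on the left and 10 microglia markers on the right, with points for medians of 5 libraries and lines from the lowest to the highest library. Tap2, Nlrc5 and Tapbp lie at 31.1% or more in non-Tg libraries, and the markers at 2.17% or less.

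The heavy chain genes did not pass the test in any sort in which they were tested. In myeloid libraries H2-K1 was at 86.5, 134.0, 102.5, 101.5 and 105.1 CPM in non-Tg replicates 1 to 5 and at 113.4, 162.7, 159.7, 89.1 and 167.9 CPM in PS2APP replicates 1 to 5. Of the 5 PS2APP libraries 4 were above all but 1 non-Tg library, replicate 4 was among the lowest, and the groups overlapped. The log2 fold change was 0.39 ± 0.19 (SE), with an adjusted p of 0.26 by edgeR's quasi-likelihood test.

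H2-D1 spread more widely, at 31.3, 90.8, 76.1, 50.5 and 55.4 CPM in non-Tg and 53.6, 115.7, 123.9, 36.9 and 101.6 CPM in PS2APP myeloid libraries. Its lowest PS2APP value was again replicate 4, and its log2 fold change was 0.51 ± 0.29. H2-T23, a nonclassical heavy chain gene that presents signal peptides to natural killer cell receptors, was at 11.4 to 14.2 CPM in non-Tg and 11.1 to 23.2 CPM in PS2APP, with only PS2APP replicate 3 above the non-Tg range.

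In astrocyte libraries H2-K1 was at 19.99, 15.99, 22.7, 19.2 and 30.8 CPM in non-Tg and 29.7, 44.1, 23.1, 25.2 and 14.5 CPM in PS2APP, so PS2APP held both the highest and the lowest library. Its log2 fold change there was 0.33 ± 0.28. H2-D1 went from 5.24 to 7.05 CPM in non-Tg to 1.52 to 8.75 CPM in PS2APP astrocytes, a log2 fold change of -0.23 ± 0.45 whose lowest library, PS2APP replicate 3, had 5 counts. Neuron libraries held 2 to 16 counts of H2-K1 each, and the log2 fold change of 0.94 ± 0.46 had an adjusted p of 0.23.

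B2m, the light chain shared by all class I molecules, rose in astrocytes. Its non-Tg astrocyte values were 7.47, 8.08, 12.3, 7.41 and 15.1 CPM, and its PS2APP values were 32.2, 30.8, 24.6, 22.3 and 24.5 CPM. Every PS2APP astrocyte library was above every non-Tg one. The log2 fold change was 1.42 ± 0.28 (SE, n = 5 and 5), with an adjusted p of 0.041 by edgeR's quasi-likelihood test.

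In myeloid libraries B2m was at 122, 214.2, 205.3, 209.3 and 220.2 CPM in non-Tg and 241.9, 308.1, 251.6, 180.2 and 384.6 CPM in PS2APP. PS2APP replicates 1, 2, 3 and 5 were above all non-Tg libraries and replicate 4 was below all but 1, and the log2 fold change of 0.49 ± 0.19 had an adjusted p of 0.16. In neurons B2m was at 5.16 to 8.34 CPM in non-Tg and 3.93 to 6.83 CPM in PS2APP, with a log2 fold change of -0.44 ± 0.22 and an adjusted p of 0.25. The PS2APP effect on B2m differed between astrocytes and neurons by 1.84 ± 0.35 on the log2 scale (adjusted p = 0.0259, the interaction tested by edgeR), the sole member among 10 to pass there, against 0.0331% of all genes. Between myeloid cells and astrocytes the B2m effects differed by -0.996 ± 0.31, with an adjusted p of 0.13.

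The transporter and loading genes gave no call. Tap1, which forms the peptide pump with Tap2, was at 76.4, 99.7, 46.8, 49.7 and 60.7 CPM in non-Tg and 85.6, 114.1, 146.7, 57.3 and 79.5 CPM in PS2APP myeloid libraries, with overlapping groups and a log2 fold change of 0.54 ± 0.24 (adjusted p = 0.22, edgeR). In astrocytes Tap1 was at 7.47, 11.7, 5.61, 10.8 and 9.43 CPM in non-Tg and 10.3, 20.1, 15.2, 16.1 and 14.1 CPM in PS2APP. PS2APP astrocyte replicates 2 to 5 were above all non-Tg ones, and the log2 fold change was 0.74 ± 0.31 (adjusted p = 0.23, edgeR). Tap2 had log2 fold changes of 0.35 ± 0.26 in myeloid cells and 0.23 ± 0.31 in astrocytes, and Tapbp of 0.11 ± 0.18 and 0.40 ± 0.24. In neurons the log2 fold changes of Tap1, Tap2 and Tapbp were 0.16, 0.22 and 0.07, each smaller than its SE.

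The immunoproteasome subunit genes did not pass in myeloid cells. Psmb8 was at 35.5, 37.5, 32.9, 24.9 and 45.6 CPM in non-Tg and 39.4, 24.3, 19.8, 27.4 and 43.5 CPM in PS2APP myeloid libraries, a log2 fold change of -0.19 ± 0.27. Psmb9 was at 6.41 to 23.3 CPM in non-Tg and 4.46 to 19.0 CPM in PS2APP, a log2 fold change of -0.46 ± 0.41. They were the 2 members with negative values in that sort. In astrocytes and neurons both fell under the low-count filter and were not tested.

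Nlrc5, the transactivator, rose in myeloid cells and in astrocytes. Its myeloid values were 46.3, 72.3, 45.1, 27.2 and 44.4 CPM in non-Tg and 99.5, 100.9, 365.7, 189.1 and 104.2 CPM in PS2APP, so every PS2APP library was above every non-Tg one. PS2APP replicates 1, 2 and 5 lay close together and replicate 3 stood above the rest. The log2 fold change was 1.87 ± 0.31 (SE, n = 5 and 5), with an adjusted p of 0.0018 by edgeR's quasi-likelihood test, and it was 1.39 without PS2APP replicate 3.

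Its astrocyte values were 13.6, 11.5, 10.2, 6.89 and 21.2 CPM in non-Tg and 25.0, 67.5, 34.6, 37.3 and 32.7 CPM in PS2APP. The groups did not overlap, and PS2APP replicate 2 was the highest. The log2 fold change was 1.64 ± 0.32 with an adjusted p of 0.039, and the effect differed from that in myeloid cells by 0.16 ± 0.46 (adjusted p = 0.93, edgeR). In simulated data that test of the difference called 5 of 100 true 2-fold differences, so like effects are not shown. Neuron libraries held 3 to 12 counts of Nlrc5 and were not tested.

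Set against all genes, 1 of 10 tested members was called in myeloid cells, where 3.36% of all genes were called, and 2 of 7 tested members in astrocytes, where 0.185% were. These backgrounds moved with single libraries: the 412 genes called in myeloid cells became 105 without non-Tg replicate 4 and 652 without non-Tg replicate 1, and the 26 called in astrocytes became 8 without non-Tg replicate 2 and 125 without non-Tg replicate 1. No member of 7 tested was called in neurons by edgeR, where 0.00623% of genes were called, none had an unadjusted p under 0.05, and DESeq2 called 0. Groups did not overlap for 1 member in myeloid cells (4.8% of all genes), 2 in astrocytes (2.99%) and 0 in neurons (3.13%). The median log2 fold change of the tested members was 0.37 in myeloid cells, 0.41 in astrocytes and 0.16 in neurons, against -0.0021, 0.0066 and -0.02 over all tested genes. Members pass the filter by their level, and H2-T23, Psmb8 and Psmb9 in astrocytes and Psmb8, Psmb9 and Nlrc5 in neurons did not, so these medians do not cover the full set. The members were also chosen with earlier results of these data known. Their shares and medians set against all genes are therefore descriptive only. The differences between myeloid cells and astrocytes and between myeloid cells and neurons gave 0 called members each by edgeR (0.757% and 0.105% of all genes), with 1 at an unadjusted p under 0.05 in each, and 0 by DESeq2. In simulated data the myeloid and astrocyte test called 5 of 100 true 2-fold differences, so 0 calls there do not show like effects.

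**Figure D3:**
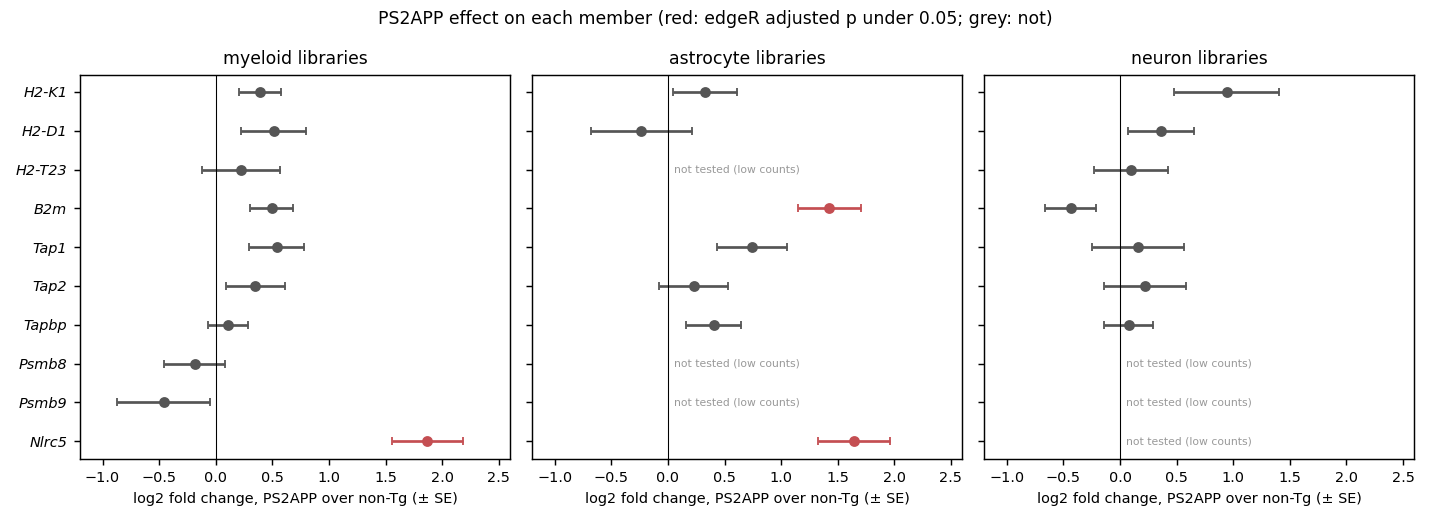
Log2 fold change of PS2APP over non-Tg for the members tested in each sort, which were 10 in myeloid cells and 7 each in astrocytes and neurons (horizontal axis, with bars for the SE of 5 against 5 libraries), in red where the edgeR adjusted p was under 0.05. Nlrc5 in myeloid cells (1.87) and astrocytes (1.64) and B2m in astrocytes (1.42) stand to the right, and the heavy chain genes lie at 0.94 or less.

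The astrocyte calls were the less stable ones. With 1 library left out at a time, Nlrc5 in myeloid cells passed in 10 of 10 fits. B2m in astrocytes passed in 3 of 10 and was lost without PS2APP replicate 1 (log2 fold change 1.34, adjusted p 0.0735), 2 (1.37, 0.122), 4 (1.49, 0.0575) or 5 (1.46, 0.0526) or non-Tg replicate 2 (1.35, 0.115), 3 (1.49, 0.0749) or 4 (1.32, 0.109). Nlrc5 in astrocytes passed in 5 of 10 and was lost without PS2APP replicate 2 (1.36, 0.122) or 4 (1.66, 0.0575) or non-Tg replicate 2 (1.60, 0.113), 3 (1.56, 0.106) or 4 (1.47, 0.0895). Without PS2APP astrocyte replicate 3, the library farthest out on the first component, the values were 1.46 for B2m and 1.69 for Nlrc5, and both passed. The difference in the B2m effect between astrocytes and neurons passed in 12 of 20 fits, at 1.75 to 2.03, and was lost without PS2APP neuron replicate 1, 4 or 5, non-Tg neuron replicate 2, 3 or 4, or non-Tg astrocyte replicate 2 or 4 (adjusted p 0.0547 to 0.0937).

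Markers of other cells moved in the astrocyte sort as well. The 10 microglia markers summed to 38.6 to 66.8 CPM in non-Tg and 69.2 to 128.4 CPM in PS2APP astrocyte libraries, none of the 10 was at 0 throughout, and Csf1r and Fcrls passed as higher. As a share of the myeloid level of the same genotype, the markers had a median of 0.462% in non-Tg and 1.575% in PS2APP (0.632% to 3.32%), whereas B2m went from 4.8% to 11.6% and Nlrc5 from 31.1% to 37.8%. The 8 oligodendrocyte markers summed to 673.8 to 1050 CPM (median 885.1) in non-Tg and 861.9 to 1845 CPM (median 1363) in PS2APP astrocyte libraries, with 7 of 8 tested markers at positive values. The 12 neuron markers summed to 613.7 to 893.0 CPM (median 684.1) and 795.5 to 1875 CPM (median 938.2), with 9 of 11 tested markers at positive values, and no marker of either list passed. With the summed markers of all other cell types as a covariate the log2 fold changes in astrocytes were 1.74 for B2m and 1.79 for Nlrc5. Neither passed (adjusted p = 0.177 and 0.33, edgeR). The oligodendrocyte and neuron markers were the largest parts of that sum, whereas the microglia markers had medians of only 59.4 (non-Tg) and 113.9 (PS2APP). The fit was thus weighted little by microglia markers, and a covariate of microglia markers alone was not tested. The 10 endothelial markers summed to 57.9 to 117.6 CPM in non-Tg and 57.2 to 105.1 CPM in PS2APP astrocyte libraries, and the 10 T and natural killer cell markers to 0.909 to 6.41 and 3.65 to 5.51 CPM, with Klrd1 and Klrb1c at 0 in both groups.

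In the myeloid sort the microglia markers summed to 8945 to 9655 CPM in non-Tg and 6629 to 8571 CPM in PS2APP, with Cx3cr1 and Tmem119 lower. The 8 monocyte and neutrophil markers summed to 147.2 to 1311 CPM in non-Tg libraries, against 178.0 to 984.4 CPM in PS2APP, where Ccr2 was lower. Other lists moved the opposite way: the 8 oligodendrocyte markers summed to 652.7 to 1045 CPM in non-Tg and 1118 to 1829 CPM in PS2APP myeloid libraries, and the 12 neuron markers to 188.6 to 290.0 and 260.0 to 447.5 CPM. Mobp, Mbp, the astrocyte marker Gfap and the endothelial marker Flt1 passed as higher there, and the astrocyte marker Aqp4 as lower. None of the genes of these 2 lists was at 0 throughout a group, and their part in the Nlrc5 result was not tested one list at a time. T and natural killer cell markers were at 1.65 to 11.3 CPM and 0.0 to 5.79 CPM, with Cd3d, Cd3g and Nkg7 at 0 in all PS2APP libraries. With the summed markers of other cell types as a covariate, Nlrc5 was at 2.35 and passed (adjusted p = 0.0018, edgeR). The part of depth and of the mitochondrial share, both of which differed between the genotypes in this sort, was not tested beyond the fit without mitochondrial and ribosomal RNA genes, in which Nlrc5 was at 1.87.

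Among the PS2APP myeloid libraries the order of Nlrc5 differed from that of B2m. Replicate 4 had the second highest Nlrc5 of its group and the lowest H2-K1, H2-D1, B2m and Tap1, while replicate 5 had the highest B2m with an Nlrc5 value at the group median. In the other myeloid and astrocyte groups the top libraries were shared or close. Non-Tg astrocyte replicate 5 was highest in both genes, and PS2APP astrocyte replicate 2 and non-Tg myeloid replicate 2 had the highest Nlrc5 and the second highest B2m of their groups. In neurons, where Nlrc5 counts were few, PS2APP replicate 3 had the highest Nlrc5 and the second highest B2m. Non-Tg neuron replicate 5 had the highest Nlrc5 (1.30 CPM) and the second lowest B2m (5.38 CPM). The 5 genes with the highest correlation to B2m in log2 CPM over the 30 libraries were Ctsd (0.98), Tgfbr2 (0.976), Slfn8 (0.976), Uba7 (0.974) and Rab3il1 (0.973), and for Nlrc5 they were Gm15564 (0.974), Trim25 (0.973), Chd7 (0.971), Irak2 (0.968) and Trim5 (0.968). Over the same libraries, which share the sort and the genotype as sources of likeness, log2 CPM of Nlrc5 correlated with H2-K1 at r = 0.951, with Tap1 at 0.945 and with B2m at 0.883. After the group means were removed, the same correlations were 0.218, 0.362 and 0.081, and that of B2m with H2-K1 was 0.487. By the rule of highest correlation of these deviations among 9000 genes, the genes most like B2m were Cst3 (0.733), Lamp1 (0.727), Ctsl (0.716), 9530068E07Rik (0.716) and Serinc3 (0.715), and those most like Nlrc5 were Ddb1 (0.715), Irak2 (0.68), Polr3a (0.654), Gphn (0.639) and Epb41l4a (0.631). These coefficients describe 30 libraries whose depth also differed within a sort, and the part of depth in them was not tested.

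**Figure D4:**
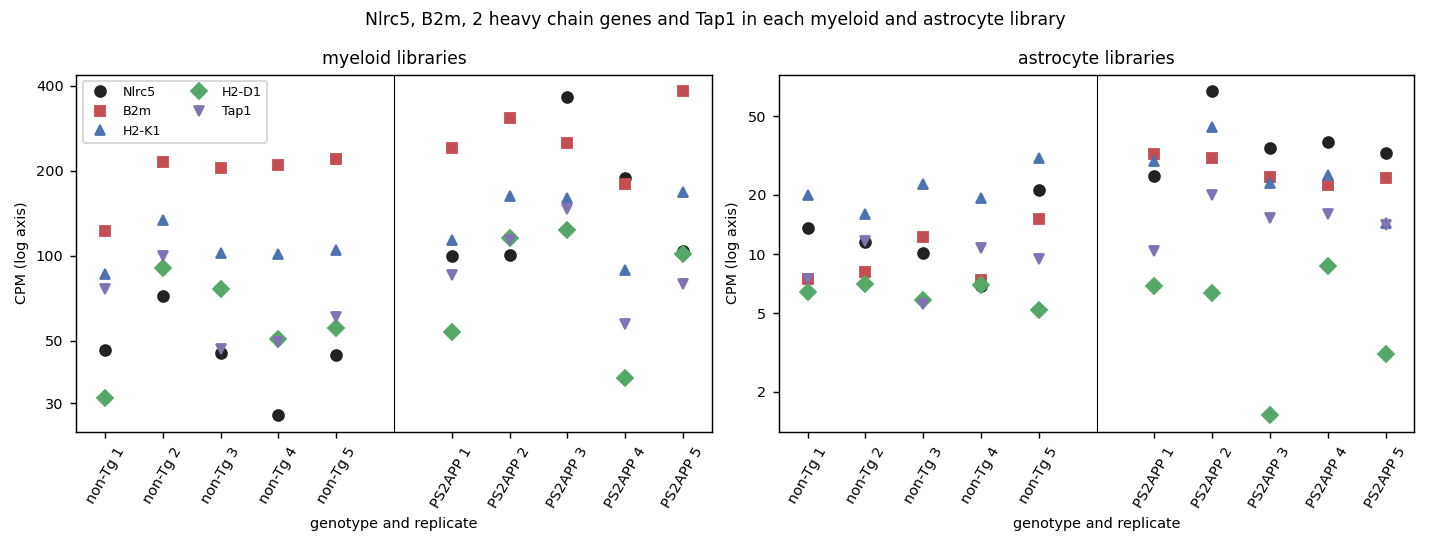
CPM (log axis) of Nlrc5, B2m, H2-K1, H2-D1 and Tap1 in each myeloid library on the left and each astrocyte library on the right, by genotype and replicate. Nlrc5 is highest in PS2APP myeloid replicate 3 at 365.7 CPM, and in PS2APP myeloid replicate 4 it stands at 189.1 CPM while H2-K1, H2-D1, B2m and Tap1 are at their lowest in the group.

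Other genes of the pathway were read from lists. Of 23 class I heavy chain and class I-like genes, 13 were tested in myeloid cells, 9 in astrocytes and 8 in neurons, and edgeR called 0 in each sort. Values were positive for 7 of 13, 5 of 9 and 6 of 8, with median log2 fold changes of 0.22, 0.0304 and 0.174. The smallest p belonged to Hfe, an iron-regulating class I-like gene, in myeloid cells (log2 fold change -0.78 ± 0.29), to Fcgrt, which encodes the neonatal Fc receptor chain, in astrocytes (0.70 ± 0.36) and to H2-K1 in neurons. Of 11 transport and loading genes, Lnpep, an aminopeptidase of the endosomal cross-presentation route, fell in myeloid cells from a median of 163.0 CPM to 67.8 CPM, a log2 fold change of -1.05 ± 0.21 with an adjusted p of 0.0092 by edgeR. The remaining 9 tested genes of that list did not pass there. In astrocytes and in neurons 0 of 10 passed, with Tapbpl (-1.10 ± 0.40) and Lnpep (-0.52 ± 0.18) at the smallest p.

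Of 6 immunoproteasome and activator genes none passed in any sort. Psme1, a subunit of the PA28 activator, came closest in myeloid cells, at 41.0 to 69.8 CPM in non-Tg and 64.4 to 119.0 CPM in PS2APP, with a log2 fold change of 0.73 ± 0.21 and an adjusted p of 0.054 by edgeR. It also had the smallest p in astrocytes (0.69 ± 0.36), and in neurons that was Psmb10, the third interferon-induced catalytic subunit (-0.27 ± 0.20). None of 12 constitutive proteasome genes tested in myeloid cells passed, nor of 14 in astrocytes or 16 in neurons, where Psme4 (-0.57 ± 0.17), Psma4 (0.55 ± 0.31) and Psma6 (-0.66 ± 0.22) had the smallest p. Among 14 class I transactivation genes, Nlrc5 was the sole gene that passed in myeloid cells and in astrocytes. In neurons 0 of 13 passed, and Rfxank, which encodes a subunit of the factor bound at the X box, came first at 0.75 ± 0.21.

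Interferon-related genes passed in both directions in myeloid cells, only as higher in astrocytes and not at all in neurons. Positive values were found for 9 of 16 tested signalling genes in myeloid cells, 12 of 14 in astrocytes and 8 of 14 in neurons. Among interferon-induced GTPase and antiviral genes they were 13 of 16, 12 of 14 and 4 of 7. Median log2 fold changes were 0.161, 0.386 and 0.077 for the first list and 0.578, 0.753 and 0.233 for the second. Of 16 tested genes of interferon receptors and signalling, Stat2, a transducer of type I interferon signals, rose in myeloid cells (log2 fold change 0.98 ± 0.21, adjusted p = 0.0164, edgeR) and Ifngr1, a chain of the interferon gamma receptor, fell (-0.66 ± 0.17, adjusted p = 0.0377). In astrocytes Stat2 had the smallest p of 14 tested, at 0.67 ± 0.17, and in neurons Irf9, its DNA-binding partner, at 0.55 ± 0.14, and neither passed. Of 16 tested interferon-induced GTPase and antiviral genes, Gbp6 (2.52 ± 0.60) and Iigp1 (2.19 ± 0.61) rose in myeloid cells from medians of 1.03 and 1.23 CPM, and of 14 tested in astrocytes Gbp3 (1.38 ± 0.27) and Rnf213 (0.83 ± 0.16) rose. Of 7 tested in neurons none passed, and Rnf213 came first at 0.53 ± 0.15.

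Among receptors and partners of class I, 3 were tested in myeloid cells and Lilrb4a, an inhibitory receptor of myeloid cells, rose by 0.94 ± 0.23 on the log2 scale. Cd247, a signalling chain of T and natural killer cell receptors, was the 1 gene of that list tested in astrocytes (-0.58 ± 0.22) and in neurons (-0.23 ± 0.29), and it did not pass.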

How the data were processed

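Total RNA of 30 sorted-cell libraries was sequenced by the authors. Alignment used GSNAP to GRCm38 per the submitters' processing notes, and no version, annotation, read length or strand is given in the sources used here. Counts as deposited are whole reads per Entrez gene ID, and the authors' second column is RPKM scaled by a size factor, per the file headers. IDs were paired with symbols for 31049 of 36528 (96.7% of counts). Groups follow the labels, and replicate numbers follow accession order and only name libraries. No 2 libraries held identical values, and the most alike pair of a group differed by more than counting noise (chi-square over degrees of freedom 4.06).

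Counts were tested with edgeR 4.0.16 (R 4.3.3): filterByExpr, TMM, quasi-likelihood test, Benjamini-Hochberg over all genes tested, threshold 0.05. Each sort was fitted alone for the PS2APP effect, and all 30 libraries together for levels and differences of effects. Each SE was derived from the test, as the absolute log2 fold change divided by the square root of the quasi-likelihood F statistic. CPM are scaled to the library total, and RPKM was used for levels between genes. Alternatives were DESeq2 1.42.0, limma 3.58.1 on log2(RPKM + 0.1), RLE size factors, no low-count filter, a joint fit, no mitochondrial or ribosomal RNA genes, a covariate of other cells' markers, and leaving out each library. Tested on simulated data, edgeR called 34 of 100 true 2-fold changes and 82 of 100 true 4-fold changes in myeloid libraries (12759 genes), and 18 and 84 in astrocyte libraries (14239 genes). For the difference of the myeloid and astrocyte effects it called 5 of 100 true 2-fold and 69 of 100 true 4-fold differences (18378 genes). All 10 members are described. From each list the text names the genes that passed, up to 4, or else the gene of smallest p, and for B2m and Nlrc5 the 5 most correlated genes. The members and lists were chosen with earlier results of these data known. The motifs were searched in 2 rounds, the second set after the promoters had been read.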

Additional observations from a re-analysis of the deposited data

Results flagged for a closer look

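In 4 cases a library value lay apart from the other 4 of their group, by a gap that took up more than 0.71 of the group's range. H2-T23 was highest in PS2APP myeloid replicate 3, at 23.2 CPM. B2m was lowest in non-Tg myeloid replicate 1, at 122.0 CPM. Tap2 was highest in PS2APP neuron replicate 5, at 5.98 CPM, a library that also stood apart from the rest of the neuron sort on the first component. Nlrc5 was highest in PS2APP astrocyte replicate 2, at 67.5 CPM. Of the 56 gene and group combinations examined, chance alone flags about 1 in 20.

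The PS2APP effect on B2m differed between astrocytes and neurons by 1.84 on the log2 scale in a test of the difference itself.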

How the results depend on the processing

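The myeloid call of Nlrc5 held under each alternative run, at 1.39 to 2.35 on the log2 scale. The count of members called in astrocytes, 2, was 1 on log2 RPKM with limma (B2m), 0 with the covariate of other cells' markers, and 0 to 2 with 1 library left out. The count for the astrocyte and neuron difference was 0 to 1 with 1 library left out. The covariate turned the astrocyte values of H2-D1 to 0.0964 and Tap2 to -0.457. RLE size factors and DESeq2 turned the myeloid and astrocyte difference of H2-K1 to 0.122 in both and the myeloid and neuron difference of Tapbp to 0.0835 and 0.0839. RLE moved the median over all genes from -0.111 to -0.28 for the non-Tg myeloid and astrocyte level. No called value changed direction, and uncalled values crossed 0 when 1 library was left out as follows. Effects ranged over -0.0117 to 0.313 (H2-T23, myeloid), -0.502 to 0.00401 (H2-D1, astrocyte), -0.0104 to 0.361 (Tap2, astrocyte), and in neurons -0.163 to 0.253 (H2-T23), -0.0257 to 0.403 (Tap1), -0.267 to 0.394 (Tap2) and -0.141 to 0.177 (Tapbp). Myeloid and astrocyte differences ranged over -0.147 to 0.244 (H2-K1), -0.0704 to 0.329 (Tap2), -0.90 to 0.253 (Psmb8) and -0.324 to 0.445 (Nlrc5). Myeloid and neuron differences ranged over -0.117 to 0.276 (H2-D1), -0.187 to 0.286 (H2-T23), -0.117 to 0.527 (Tap2) and -0.166 to 0.16 (Tapbp). Astrocyte and neuron differences ranged over -0.262 to 0.456 (Tap2) and -0.0992 to 1.57 (Psmb9). The cause was not tested. In non-Tg levels of astrocytes over neurons, Psmb8 was lost in 1 of 10 such fits and Psmb9 in 3 of 10. Counts of all genes called differed by more than 1.5 times between tools: 412, 121 (limma) and 839 (DESeq2) in myeloid cells, 26, 7 and 331 in astrocytes, and 1, 1 and 148 in neurons, and without the low-count filter 939, 514 and 15. With the covariate of other cells' markers they were 85, 7 and 3, and with 1 library left out 105 to 652, 8 to 125 and 1 to 11. No paired analysis was possible because the labels give no replicate number shared between groups.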
